A study of Mus musculus with 6 samples.

Results

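Liver carboxylesterases are serine hydrolases that share the alpha/beta hydrolase fold with butyrylcholinesterase, the enzyme that the series set out to overexpress in hepatocytes. The 10 genes described here, Ces1b, Ces1c, Ces1d, Ces1e, Ces1f, Ces1g, Ces2a, Ces2c, Ces3a and Ces3b, were taken by name from the count table, where all 10 were found among 20914 listed genes. All 10 also passed the filter on low counts, which left 13725 genes for testing. The series holds RNA-seq of mouse liver in 6 libraries, with 3 in the PBS group and 3 in the DOX group. Every library, controls included, carries the genotype label BucheKI/KI-Hep, a sample name with CKI and Alb-Cre, and the label of BDL treatment. The albumin promoter of Alb-Cre is used to direct recombination to hepatocytes, and which cells of the liver recombined was not measured here. Age is not stated in the labels, nor are the meanings of BDL, DOX and S10D, although in mouse liver BDL commonly means ligation of the bile duct. The labels do not say that each library is a separate animal, so p-values measure the spread between libraries, which may be technical.

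Carboxylesterases cleave ester, amide and thioester bonds of drugs and of lipids. Most members sit in the lumen of the endoplasmic reticulum of hepatocytes, where the Ces1 and Ces2 enzymes act on drugs and several of them on stored triglyceride or diglyceride. Ces1c is different in that its product is secreted and makes up the main carboxylesterase of mouse plasma, where it works beside circulating butyrylcholinesterase. Several family genes are known targets of the xenobiotic receptors CAR and PXR.

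All 10 genes lie on mouse chromosome 8, in a pair of clusters (GENCODE M21 on GRCm38). The Ces1 cluster holds 6 of them on the minus strand, from Ces1b at 93056728 to 93080017 up to Ces1g at 93302369 to 93337308. The other cluster holds 4 on the plus strand, from Ces2a at 104734003 to 104741634, through Ces2c and Ces3a, to Ces3b at 105083753 to 105093929. Within the Ces1 cluster, Ces1c lies at 93099015 to 93131283, Ces1d at 93166068 to 93197838, Ces1e at 93201218 to 93229619 and Ces1f at 93256236 to 93279747. Their coding sequences were of like length, 1665 bases in Ces1c to 1716 in Ces3a and Ces3b.

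Because counts of near-identical genes can be split by read mapping, the coding sequences were compared first. The opening 60 coding bases are shown for every member, with capitals marking bases that differ, position by position, from Ces1c for the Ces1 genes, from Ces2a for Ces2c and from Ces3a for Ces3b.
Ces1c: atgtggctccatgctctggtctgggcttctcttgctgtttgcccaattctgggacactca
Ces1b: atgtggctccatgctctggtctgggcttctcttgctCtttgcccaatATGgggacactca
Ces1d: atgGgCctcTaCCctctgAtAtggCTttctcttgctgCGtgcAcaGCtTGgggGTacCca
Ces1e: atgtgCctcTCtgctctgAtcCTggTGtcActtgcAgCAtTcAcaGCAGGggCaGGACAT
Ces1f: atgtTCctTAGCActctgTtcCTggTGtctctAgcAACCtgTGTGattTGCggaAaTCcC
Ces1g: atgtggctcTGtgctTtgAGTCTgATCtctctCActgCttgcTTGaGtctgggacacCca
Ces2a: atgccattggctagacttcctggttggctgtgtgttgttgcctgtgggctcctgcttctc
Ces2c: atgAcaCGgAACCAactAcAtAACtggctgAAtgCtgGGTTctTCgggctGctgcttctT
Ces3a: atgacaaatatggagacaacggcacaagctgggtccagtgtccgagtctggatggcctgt
Ces3b: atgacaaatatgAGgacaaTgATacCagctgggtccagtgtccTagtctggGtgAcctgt
Ces1b differed from Ces1c at 4 of these 60 bases and Ces3b from Ces3a at 9, whereas Ces1d and Ces1g differed from Ces1c at 19, Ces2c from Ces2a at 24, Ces1e from Ces1c at 26 and Ces1f at 28. Over whole coding sequences, identity was 95.3% for Ces3a with Ces3b, 92.0% for Ces1b with Ces1c and 83.0% for Ces2a with Ces2c. The 15 pairs of Ces1 genes spanned 75.1% to 92.0%. Pairs from different groups spanned 65.6% to 71.1%, and members with Bche 65.9% to 69.2%. Members with the unrelated albumin gene lay in about that range (68.0% to 71.0%). These percentages count aligned bases only, so at that distance they do not by themselves set relatives apart. The share of the longer coding sequence that aligned did differ. It was 88.1% to 90.8% between groups, 79.1% to 82.6% with Bche and 73.8% to 77.2% with albumin. Of all 50-base words in a member's annotated transcripts, 36.1% of those of Ces2c, 26.2% of those of Ces3b, 25.6% of those of Ces3a and 17.3% of those of Ces2a also occur in a transcript of another gene. The share was 13% for Ces1c and 11.6% for Ces1b, and at most 2.97% for Ces1d, Ces1e, Ces1f and Ces1g. With 100-base words these last 4 shared none. The sources used here state neither the length of the reads nor the treatment of reads with several matches, so the levels of Ces2c, Ces3a, Ces3b, Ces2a, Ces1b and Ces1c are uncertain in that respect.

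**Figure D1:**
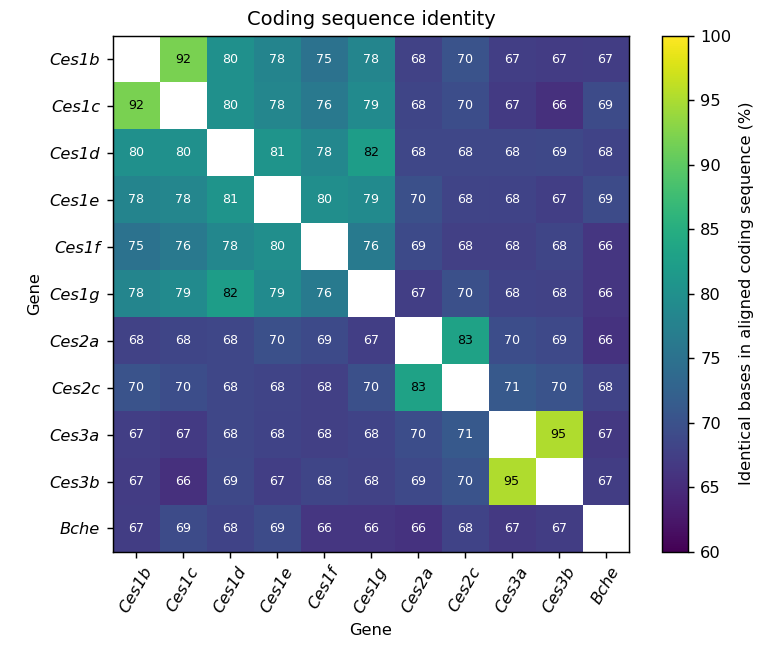
Percent of identical bases in aligned coding sequences, for each pair of the 10 carboxylesterase genes and Bche; the diagonal is left blank. The brightest cells are Ces3a with Ces3b (95.3%) and Ces1b with Ces1c (92.0%), and the Ces1 genes form a block from 75.1% upward.

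The windows around the transcription starts (300 bases, mostly upstream, from RefSeq on GRCm38.p6) were available for 7 members, Ces1b, Ces1c, Ces1e, Ces1g, Ces2a, Ces2c and Ces3b. The windows of Ces1b with Ces1c and of Ces2a with Ces2c are shown, as pairs of near relatives that differ in level, with capitals marking matches to the motifs named after them. Ces1b is at chr8:93079891-93080190 and Ces1c at chr8:93131234-93131533, both on the minus strand, and Ces2a is at chr8:104733753-104734052 and Ces2c at chr8:104846818-104847117, both on the plus strand. Of the 2 windows listed for Ces1b, the one nearer to its coding start was used.
Ces1b: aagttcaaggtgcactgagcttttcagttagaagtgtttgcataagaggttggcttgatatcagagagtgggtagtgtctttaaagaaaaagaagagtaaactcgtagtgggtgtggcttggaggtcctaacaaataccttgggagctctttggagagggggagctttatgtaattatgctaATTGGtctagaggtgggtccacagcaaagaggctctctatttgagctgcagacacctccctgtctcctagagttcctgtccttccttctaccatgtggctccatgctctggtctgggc
Ces1c: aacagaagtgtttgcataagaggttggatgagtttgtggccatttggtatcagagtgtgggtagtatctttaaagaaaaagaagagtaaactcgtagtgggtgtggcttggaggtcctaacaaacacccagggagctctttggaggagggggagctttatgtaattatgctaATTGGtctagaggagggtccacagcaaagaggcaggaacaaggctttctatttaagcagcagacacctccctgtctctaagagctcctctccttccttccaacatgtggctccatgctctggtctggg
Ces2a: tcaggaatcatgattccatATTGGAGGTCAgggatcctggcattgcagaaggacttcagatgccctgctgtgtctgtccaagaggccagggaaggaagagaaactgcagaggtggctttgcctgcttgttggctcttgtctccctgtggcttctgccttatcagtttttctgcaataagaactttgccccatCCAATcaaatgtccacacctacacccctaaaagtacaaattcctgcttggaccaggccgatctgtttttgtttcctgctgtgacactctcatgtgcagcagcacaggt
Ces2c: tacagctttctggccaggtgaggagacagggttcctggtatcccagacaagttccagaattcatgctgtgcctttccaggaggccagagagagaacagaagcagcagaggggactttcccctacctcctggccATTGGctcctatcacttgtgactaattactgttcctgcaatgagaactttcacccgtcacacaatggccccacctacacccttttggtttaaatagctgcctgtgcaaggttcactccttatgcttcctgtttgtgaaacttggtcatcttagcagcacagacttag
The Ces1b and Ces1c windows aligned over 270 bases with 93.7% identity, and those of Ces2a and Ces2c over 187 bases with 72.2%. Both strands were searched for 5 motifs, and no matches overlapped each other. CCAAT, the CCAAT box, was present in 6 of the 7 windows, against 37.4% of 32851 windows of all genes. TATAAA, the letters of the TATA box, was present in 2 of 7, against 13.6%. In Ces3b it was on the strand of the gene, and in Ces1g only on the opposite strand. AGGTCA, the core element of nuclear receptors, was present in 1 of 7 (Ces2a), against 16.3%. GTTAAT, part of the HNF1 element, was present in 1 of 7 (Ces3b), against 7.1%, and TGACNNNGC, the core of the antioxidant response element, in 0 of 7, against 12.4%. These matches describe letters in these windows only.

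Total counts per library ranged from 32826493 to 41102844, and the 10 genes took 0.194% to 0.400% of them. Hepatocyte markers were abundant in every library, with summed levels of 67807 to 84100 CPM (counts scaled to library size with TMM factors) in PBS and 84597 to 142612 in DOX. Alb made up 67.3% to 81.7% of that sum. Of the 10 hepatocyte markers, 5 had positive and 5 negative log2 fold changes (median 0.04), the negative ones being Serpina1c, Hnf4a, Cps1, Tat and Hpd. The 10 cholangiocyte markers summed to 284 to 402 CPM in PBS and 139 to 268 in DOX, and the 8 markers of liver endothelium to 38.8 to 119.2 and 98.1 to 190.5. Stellate cell markers summed to 159.8 to 362.9 CPM in PBS and 179.0 to 414.3 in DOX, and macrophage markers to 489 to 593 and 526 to 663. Log2 fold changes were negative in all 10 cholangiocyte markers (median -0.66). They were positive in all 8 endothelial markers (median 0.88) and all 8 stellate cell markers (median 0.43). Of 7 macrophage markers, 4 were positive and 3 negative. The cholangiocyte marker Spp1 alone averaged 194.4 CPM in PBS and 123.4 in DOX. Among tissues that also express carboxylesterases, adipocyte markers (2 of 5 in the table) summed to at most 0.0535 CPM in a library and kidney tubule markers (1 of 4 in the table) to at most 0.0267. Exocrine pancreas markers (2 of 5 in the table) summed to 5.20 to 6.61 CPM in PBS and 6.97 to 8.10 in DOX. Small intestine markers (3 of 4 in the table) summed to 6.09 to 12.0 CPM in PBS and 12.6 to 15.8 in DOX, which came almost wholly from Fabp2, with Lct at no more than 1 count in a library. The part of these shifts in the results was not tested, and in bulk tissue fewer cells of a type and less RNA per cell cannot be told apart.

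The levels of the 10 genes were compared with each other in FPKM (reads scaled by gene length and library total, as deposited), the scale that allows for gene length. Ces1c was by far the most abundant, with means over 3 libraries a group of 844 ± 258 FPKM (SD) for PBS and 1174 ± 65.8 for DOX. The next genes were Ces1 members as well. Ces1g was at 190.3 ± 10.8 and 231.1 ± 62.1 FPKM, and Ces1d at 129.6 ± 9.60 and 213.3 ± 44.2. In PBS the ranges of these top 3 genes did not touch each other, whereas in DOX those of Ces1g and Ces1d overlapped. The members below them were close to each other. For Ces2a the level was 39.4 ± 14.3 FPKM in PBS and 69.7 ± 38.7 FPKM in DOX. Ces1b, Ces1e, Ces1f, Ces3b and Ces3a had mean levels of 16.3 to 23.0 FPKM in PBS, and each of them overlapped its neighbour in the order. Ces2c was lowest in both groups, at 7.19 ± 1.38 FPKM in PBS, below the range of every other member, and 11.8 ± 6.87 in DOX, where it overlapped Ces3b. Ces1b stood 36.6-fold below its near copy Ces1c in mean FPKM in PBS and 46.1-fold below it in DOX, although their start windows are 93.7% identical where they align.

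**Figure D2:**
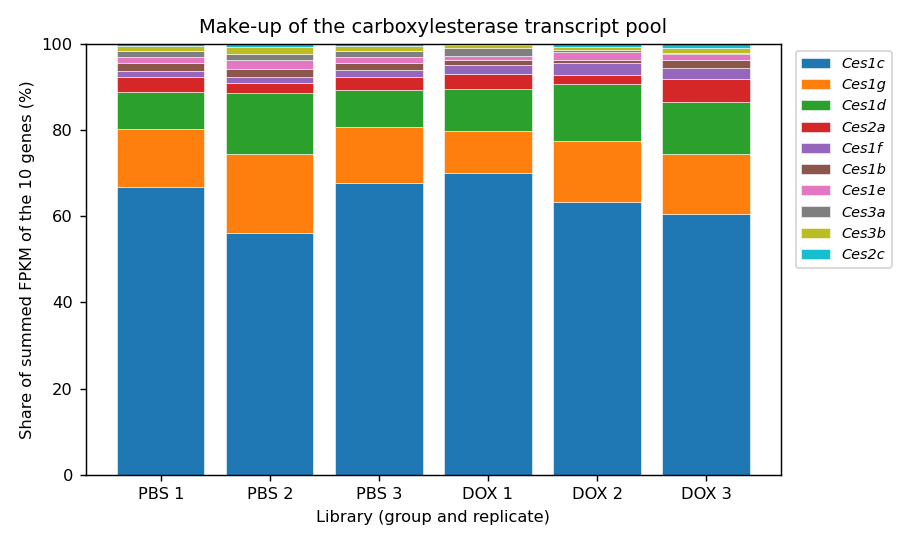
Share of the summed FPKM of the 10 genes that each gene takes, as stacked bars for the 3 PBS and 3 DOX libraries. Ces1c fills 63.6% of the pool in PBS and 64.7% in DOX on average, followed by Ces1g and Ces1d.

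As a share of the summed FPKM of the 10 genes, Ces1c took 63.6% ± 6.37 (SD, n = 3) in the PBS group and 64.7% ± 4.79 (n = 3) in the DOX group. Ces1g took 15% ± 2.87 and 12.6% ± 2.42, and Ces1d 10.4% ± 3.25 and 11.6% ± 1.70. The groups overlapped for these 3 genes. The share of Ces1f was higher in every DOX library (1.53% ± 0.056 in PBS and 2.41% ± 0.333 in DOX). That of Ces3b was lower in every DOX library (1.38% ± 0.319 and 0.749% ± 0.277). A share also depends on the summed FPKM, whose group mean was 1.39-fold larger in DOX. The FPKM of Ces3b itself overlapped between groups, at 17.1 to 17.8 in PBS and 8.80 to 21.7 in DOX. Such shares are defined for the 10 genes only, so there is no value over all tested genes. The summed level of the 10 genes was 2575, 1923 and 2780 CPM in PBS replicates 1 to 3 and 3322, 3397 and 4436 CPM in DOX replicates 1 to 3. The pool was thus larger in each DOX library than in each PBS library, with a ratio of group means of 1.53 on TMM-scaled counts, and 1.38 when scaled by library size only. Without Ces1c, the pool was 953 ± 39.3 CPM in PBS and 1447 ± 409 in DOX.

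DOX and PBS libraries share their genotype label and the BDL label, so their comparison is of the DOX label within the knock-in model, and the purpose of DOX is not stated in the labels. Bche itself, the gene named in the genotype, whose counts may include reads of the knock-in, stood at 192.8, 244.9 and 194.2 CPM in PBS and at 969.2, 447.5 and 595.0 CPM in DOX. Its groups did not overlap, its log2 fold change was 1.67 (SE 0.27), and it did not pass in edgeR (adjusted p = 0.106). It passed in DESeq2 (adjusted p = 2.90e-08) and in edgeR with no low-count filter (adjusted p = 0.0057).

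None of the 10 carboxylesterase genes passed an adjusted p of 0.05 across all genes (edgeR quasi-likelihood, 0 of 10), against 0.0291% of the 13725 genes tested. DESeq2 called 2 members, Ces1d and Ces1f, both higher in DOX, against 1.19% of 14828 genes called in either direction and 0.863% called higher. The same pair passed in edgeR without the filter on low counts, against 0.292% of 20914 genes in either direction and 0.215% higher. Limma-voom called 0 members (0.0146% of all tested genes), and so did the fit with replicate numbers as a block (0.153%). At an unadjusted p under 0.05, edgeR gave 4 members, Ces1c, Ces1d, Ces1f and Ces2a, all higher in DOX, against 9.90% of all tested genes in either direction and 5.03% higher. The log2 fold change was positive in 9 of 10 members, against 47.0% of all tested genes, and negative in Ces3b. Its median was 0.52 over the members and -0.02 over all tested genes. DOX lay above PBS in every library for 3 members, Ces1c, Ces1d and Ces1f, against 7.84% of all tested genes, and below PBS for 0 members, against 9.02%. Without DOX replicate 1, DOX lay above PBS for 6 members, against 13.3% of all tested genes, and below for 1, Ces3a, against 15.7%.

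**Figure D3:**
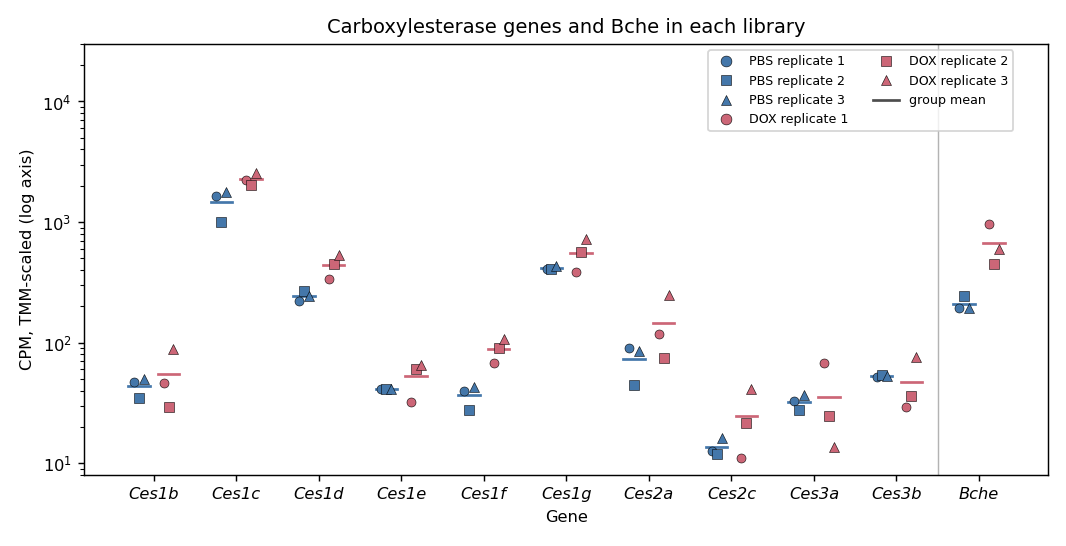
TMM-scaled CPM on a log axis for each of the 10 carboxylesterase genes and Bche, with PBS libraries in blue, DOX libraries in red, marker shapes for replicate numbers and short lines for group means. Ces1c, Ces1d, Ces1f and Bche are the genes whose red and blue points do not overlap, and DOX replicate 3 is the highest library for 9 of the 10 carboxylesterase genes.

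Ces1f, a lipid hydrolase of the Ces1 group also named TGH-2, stood at 39.6, 27.4 and 43.1 CPM in PBS and at 67.9, 90.5 and 107.8 CPM in DOX. Every DOX library lay above every PBS library. The fitted difference was 2.42-fold (95% interval 1.74 to 3.36), a log2 value of 1.27 (SE 0.21), and did not pass with edgeR (adjusted p = 0.107). With DESeq2 the adjusted p was 4.54e-06 and without the filter on low counts 0.0063, within a range over all alternatives of 4.54e-06 to 0.406. With 1 library left out the log2 fold change stayed between 1.10 and 1.44.

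Ces1d, the triacylglycerol hydrolase that mobilises stored lipid for very low density lipoproteins, stood at 219.6, 270.0 and 241.7 CPM in PBS and at 333.7, 452.7 and 536.2 CPM in DOX. The groups were again separate, with DOX replicate 1 nearest to the PBS libraries. The fitted difference was 1.81-fold (95% interval 1.36 to 2.41), a log2 value of 0.85 (SE 0.18), and did not pass (edgeR adjusted p = 0.222). DESeq2 gave an adjusted p of 0.00099 and edgeR without the filter 0.0457, within a range over all alternatives of 0.00099 to 0.594.

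Ces1c, the secreted plasma esterase, stood at 1629, 1006 and 1784 CPM in PBS and at 2229, 2042 and 2541 CPM in DOX. PBS replicate 2 was the low library, while the DOX libraries lay close together. That library also had the lowest endothelial sum (38.8 CPM) and the highest cholangiocyte sum (402 CPM), and the part of either in the result was not tested. The fitted difference was 1.54-fold (95% interval 1.08 to 2.20), a log2 value of 0.62 (SE 0.22), and did not pass either (edgeR adjusted p = 0.444). Without PBS replicate 2 the log2 value was 0.41.

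Ces1e and Ces1g had the most alike profiles of any pair of members, with a root mean square difference of 0.12 between their centred log2 CPM over the 6 libraries. Ces1e, known as egasyn for holding beta-glucuronidase in the endoplasmic reticulum, stood at 40.9, 41.1 and 41.2 CPM in PBS and at 32.4, 60.9 and 65.1 CPM in DOX. Ces1g, a Ces1 enzyme of lipid and drug metabolism, stood at 411.2, 406.7 and 429.5 CPM in PBS and at 387.1, 564.4 and 719.5 CPM in DOX. For both genes the PBS libraries were nearly equal, DOX replicate 1 lay below all of them and DOX replicates 2 and 3 lay above. The log2 fold changes were 0.36 (SE 0.23) for Ces1e and 0.42 (SE 0.21) for Ces1g, and neither passed (edgeR adjusted p = 0.621 and 0.538). With 1 library left out they ranged from 0.19 (without DOX replicate 3) to 0.63 (without DOX replicate 1) for Ces1e and from 0.20 to 0.64 for Ces1g, without the same libraries. Gusb, the gene of beta-glucuronidase, averaged 56.4 CPM in the PBS group and 55.9 CPM in the DOX group, with an edgeR log2 difference of -0.01 (adjusted p = 0.978).

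Ces1b stood at 47.0, 34.9 and 50 CPM in PBS and at 46.2, 29.1 and 88.5 CPM in DOX. Only DOX replicate 3 was above the PBS range, and the log2 fold change of 0.31 (SE 0.35) became -0.22 without that library. The 95% interval of the difference, -0.49 to 1.11, spans a change in either direction.

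The 2 members of the Ces2 group, both hydrolases of the endoplasmic reticulum, had a wide spread in DOX. Ces2a stood at 90.5, 44.8 and 84.6 CPM in PBS and at 118.4, 75.0 and 246.1 CPM in DOX. Ces2c, known as a hydrolase of acylcarnitines, stood at 12.6, 11.8 and 16.1 CPM in PBS and at 10.9, 21.7 and 41.5 CPM in DOX. In both genes DOX replicate 3 was the highest library and the groups overlapped. The log2 fold changes were 1.0 (SE 0.42) for Ces2a and 0.87 (SE 0.40) for Ces2c (edgeR adjusted p = 0.497 and 0.510). Without DOX replicate 3 they were 0.40 and 0.27.

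Ces3a and Ces3b, the pair of 95.3% coding identity, kept a like ratio across the PBS libraries and differed in it across the DOX libraries. Ces3a stood at 32.9, 27.6 and 36.6 CPM in PBS and at 67.1, 24.6 and 13.7 CPM in DOX. Ces3b stood at 51.8, 53.7 and 52.7 CPM in PBS and at 28.9, 36.3 and 76.2 CPM in DOX. In DOX replicate 1, Ces3a was at its highest and Ces3b at its lowest of all 6 libraries, and in DOX replicate 3 the reverse held. The ratio of Ces3a to Ces3b counts was 0.636, 0.513 and 0.694 in PBS replicates 1 to 3 and 2.32, 0.676 and 0.179 in DOX replicates 1 to 3. The sum of both genes was 81.3 to 89.3 CPM in PBS and 60.9 to 96.0 in DOX. The log2 fold changes, 0.12 (SE 0.48) for Ces3a and -0.16 (SE 0.31) for Ces3b, were small beside that spread (edgeR adjusted p = 0.955 and 0.889), and both changed sign when DOX replicate 1 was left out (-0.76 and 0.10).

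**Figure D4:**
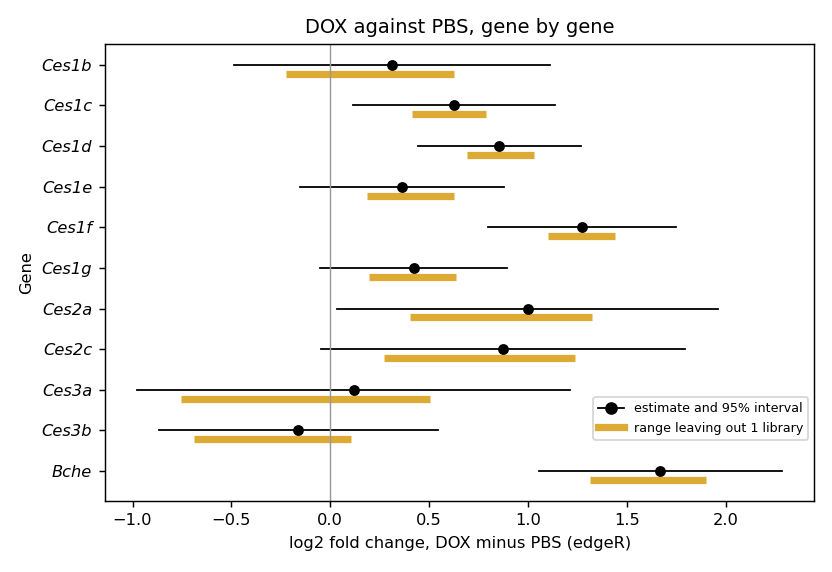
Log2 fold change of DOX against PBS for each carboxylesterase gene and Bche, with black points for the edgeR estimate, black lines for its 95% interval and yellow bars for the range of the estimate when 1 library is left out. Ces1f (1.10 to 1.44 in the yellow bar) and Ces1d stay well above 0, and the bars of Ces1b, Ces3a and Ces3b cross it.

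DOX replicate 3 was the highest of the DOX libraries for 9 of the 10 members, all but Ces3a, against 34.8% of all tested genes. DOX replicate 1, the library with the highest Bche level, was the lowest DOX library for 6 members, Ces1d, Ces1e, Ces1f, Ces1g, Ces2c and Ces3b. The share of all tested genes lowest in that library was not computed. The spread of log2 CPM was wider in DOX than in PBS for 8 members, all but Ces1c and Ces1f, against 53.2% of all tested genes. On the FPKM scale Ces1e was instead highest in DOX replicate 2. DOX replicate 3 also had the lowest cholangiocyte sum (139 CPM) and the highest hepatocyte sum, with Alb (142612 CPM) and without it (29117 CPM, against 21603 to 26366 elsewhere). Albumin took 10.1% and 10.2% of all counts in DOX replicates 1 and 3, against 4.87% to 6.09% elsewhere, and the part of these values in the members' levels was not tested.

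To compare paralog with paralog independently of library scaling, the log2 ratio of counts (with 1 added) within each library was taken for 8 pairs. Each pair holds members that follow each other among those described here, in genome order within a cluster. Genes that are not members can lie between them, which was not checked. For 3 pairs, all of them in the Ces1 cluster, which holds most of the 8 pairs, the DOX and PBS ratios did not overlap. Ces1e and Ces1f recur among these 3 pairs, so they are not separate observations. The log2 ratio of Ces1e over Ces1f was 0.05, 0.59 and -0.07 in PBS and -1.07, -0.57 and -0.73 in DOX, a difference of -0.98. That of Ces1f over Ces1g was -3.37, -3.89 and -3.32 in PBS and -2.51, -2.64 and -2.74 in DOX, a difference of 0.90. That of Ces1d over Ces1e was 2.42, 2.72 and 2.55 in PBS and 3.36, 2.89 and 3.04 in DOX, a difference of 0.53. Ces1f and Ces1d thus stood higher in DOX relative to the other gene of each of these pairs in all 3 libraries. Each of these pairs had an exact two-sided permutation p of 0.1, the smallest that 3 against 3 libraries allow, and 0.267 after Benjamini-Hochberg adjustment over the 8 pairs. The other 5 pairs overlapped (exact permutation p = 0.4 to 0.9), among them Ces1b over Ces1c with a difference of -0.48.

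**Figure D5:**
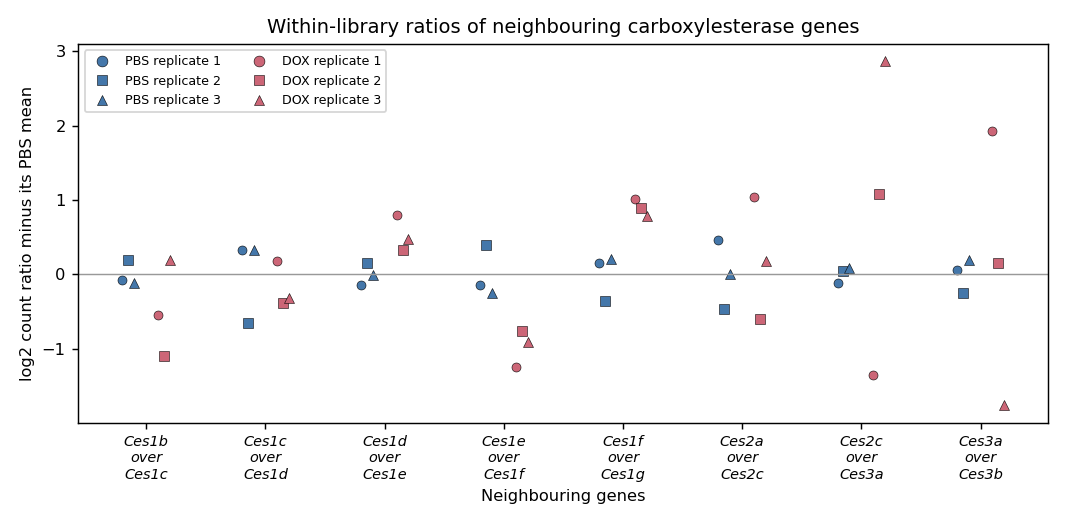
Log2 ratio of counts in each library, for pairs of members that follow each other in genome order within a cluster. Values are shown minus the PBS mean of the pair, with PBS in blue, DOX in red and marker shapes for replicate numbers. Red and blue are separate for Ces1d over Ces1e, Ces1e over Ces1f and Ces1f over Ces1g, while the DOX libraries fan out for Ces2c over Ces3a and Ces3a over Ces3b.

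Other genes of the family and of its pathways were read from lists, and edgeR called none of them in any list (adjusted p over all genes). Of 8 further Ces genes in the table, 2 passed the filter, with 1 at an unadjusted p under 0.05 and 0 called by DESeq2. Ces2g averaged 36.8 ± 1.10 CPM in PBS and 45.9 ± 4.21 in DOX, with separate groups and a log2 difference of 0.32 (SE 0.09, edgeR adjusted p = 0.380). Ces2e overlapped between groups (log2 difference -0.15, SE 0.18, adjusted p = 0.810). Ces1a, Ces1h, Ces2b, Ces2f, Ces2h and Ces4a had at most 9 counts in a library.

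Among cholinesterases and related esterases, 13 genes were tested, with 11 positive and 2 negative log2 fold changes, a median of 0.14, and 1 call by DESeq2, Bche. The unadjusted p was under 0.05 for 5 of them, against 9.90% of all tested genes. The genes with the smallest p beside Bche were Bphl, a hydrolase of valacyclovir, with a log2 difference of 0.42 (SE 0.12, edgeR adjusted p = 0.382), and Nlgn2, a synaptic adhesion protein with an esterase-like domain, with -0.96 (SE 0.29, adjusted p = 0.396) at 2.94 CPM in PBS and 1.51 in DOX.

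Among lipid hydrolases and partners of lipoprotein assembly, 16 genes were tested, with 11 positive and 5 negative values and a median of 0.16. In 5 of them every DOX library lay above PBS, against 7.84% of all tested genes, and in 0 below, against 9.02%. The unadjusted p was under 0.05 in 4, against 9.90%. Mgll, the monoacylglycerol lipase, averaged 39.8 ± 11.6 CPM in PBS and 81.1 ± 9.59 in DOX, a log2 difference of 1.03 (SE 0.20, edgeR adjusted p = 0.196). Tm6sf2, which helps load lipid onto lipoproteins, had 0.52 (SE 0.11, adjusted p = 0.222), and Lipa, the lysosomal acid lipase, had 0.40 (SE 0.11, adjusted p = 0.368). DESeq2 called these 3 genes, with adjusted p of 0.000385, 0.0201 and 0.0425.

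Of 13 nuclear receptors and factors known to act on carboxylesterase genes, 5 had positive and 8 negative values, with a median of -0.04. DESeq2 called 0, and 1 had an unadjusted p under 0.05, against 9.90% of all tested genes. Nr1i2, which encodes PXR, averaged 61.9 ± 0.718 CPM in PBS and 77.6 ± 7.75 in DOX, with separate groups (log2 difference 0.32, SE 0.10, edgeR adjusted p = 0.386). Nr1i3, which encodes CAR, overlapped between groups (0.11, SE 0.19, adjusted p = 0.877). Nfe2l2, the NRF2 gene, had -0.20 (edgeR adjusted p = 0.557), with every DOX library below PBS. The same held for Hnf4a (-0.10, edgeR adjusted p = 0.799). Cebpa, a hepatocyte transcription factor, overlapped between groups (-0.16, edgeR adjusted p = 0.647).

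Of 16 tested targets of CAR and PXR, 13 had positive and 3 negative values, with a median of 0.35. The unadjusted p was under 0.05 for 4 targets, against 9.90% of all tested genes. Cyp2c29, a cytochrome P450, averaged 285.9 ± 47.0 CPM in PBS and 615.5 ± 225.7 in DOX (log2 difference 1.11, SE 0.26, edgeR adjusted p = 0.259, DESeq2 adjusted p = 0.0015). DESeq2 also called Cyp2b9, which the edgeR filter had left out, as lower in DOX (adjusted p = 0.0193). Cyp2b9 was at 0.208, 3.06 and 0.107 CPM in PBS and at 0.0267, 0 and 0.081 CPM in DOX. Only PBS replicate 2, with 101 counts, stood far above the floor of 3 counts a library, so the PBS mean rests mostly on that library. Ugt1a1, the bilirubin glucuronosyltransferase, had 0.47 (SE 0.14, edgeR adjusted p = 0.382) and Cyp3a25 had 0.93 (SE 0.31, adjusted p = 0.423). The summed level of these targets was 20828 CPM in DOX replicate 3 and 7147 to 12302 in the other 5 libraries, so the library with the highest level of 9 carboxylesterase genes also had the highest sum of these targets. Gstm1 and Cyp3a11 made up 36.5% to 66.7% of the sum, and without them it was 6945 CPM in DOX replicate 3 and 3717 to 5403 elsewhere. The lowest of these values, 3717 CPM, was that of DOX replicate 1, whose carboxylesterase sum of 3322 CPM was above every PBS library. The part of the target sum in the members' levels was not tested. Of 9 partner genes in the endoplasmic reticulum, 5 had positive and 4 negative values, 0 had an unadjusted p under 0.05 and DESeq2 called 0. Those with the smallest p were P4hb, a disulfide isomerase (0.28, adjusted p = 0.523), and the KDEL receptors Kdelr1 (0.12, adjusted p = 0.691) and Kdelr2 (0.15, adjusted p = 0.751).

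The genes with the most alike pattern to each of the 3 most abundant members were found by the root mean square difference of centred log2 CPM over the 6 libraries, among 7735 genes of at least 10 CPM. For Ces1c they were the bile salt export pump Abcb11 (0.091), the organic anion transporter Slco1b2 (0.12) and the water channel Aqp8 (0.13). For Ces1g they included Ftl1, the ferritin light chain (0.060), and Cyp2c50, a cytochrome P450 (0.062). For Ces1d they were the mitochondrial carrier Slc25a47 (0.13), the sterol reductase Tm7sf2 (0.14) and Hacl1, a peroxisomal lyase (0.14). These distances share the same 6 libraries and describe likeness only.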

How the data were processed

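RNA of mouse liver was sequenced in 6 libraries, and the authors deposited whole-number read counts per gene and FPKM values for the same libraries. Per the submitters' processing notes, the builds were GRCm38 and mm10. The sources used here name no aligner or counter and do not say whether strand was used. The FPKM values equal counts per length and column total for 18913 of 18913 genes compared (relative tolerance 1e-05). Counts were tested with edgeR 4.0.16 (TMM scaling, filterByExpr, quasi-likelihood test in its legacy form, Benjamini-Hochberg adjustment over 13725 genes) in R 4.3.3, and checked on simulated data. DESeq2 1.42.0 and limma 3.58.1 served as alternatives. All 10 members were named, with Bche, Gusb, Nr1i2, Nr1i3, the 3 genes of smallest p in each list and the 3 genes nearest to each of the 3 most abundant members, of which 1 is not reported here. The members and lists were chosen with earlier results of these data known. A floor of 3 counts equals 0.0730 to 0.0914 CPM. No library pair of a group agreed within the sampling noise of counts, so none was merged and each counted as 1 sample. That does not show whether the libraries come from separate animals. Coding sequences were derived from GENCODE M21 and aligned with Biopython 1.88. Protein features, planned at first, were not analysed here, and coding-base identity was used in their place.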

Additional observations from a re-analysis of the deposited data

How the results depend on the processing

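The direction of Ces1c, Ces1d, Ces1e, Ces1f, Ces1g, Ces2a and Ces2c was positive under every alternative run. Among the 10 members, 2 were called, 2 of them higher in DOX, by DESeq2 and by edgeR without the filter on low counts, and 0 by the other alternatives over all 6 libraries. The fit with the replicate number as a block called 0 members and gave adjusted p of 0.0735 for Ces1f and 0.0976 for Ces1d; it called 21 genes of all tested (0.153%), against 4 without it. Same-numbered PBS and DOX libraries had correlations of 0.198, 0.136 and 0.0119, and different-numbered ones ranged from -0.189 to 0.0577. These are not correlations of whole expression profiles, so their size does not tell how alike the libraries are. The same number gave the best match for PBS replicates 1 and 2, whereas PBS replicate 3 correlated best with DOX replicate 1 (0.0544). These values do not settle whether the numbers pair the samples. Nothing in the labels says that they do, so the main fit has no block. Ces3a turned negative with scaling by library size only (-0.0078), limma-voom (-0.19), limma on log2(FPKM + 1) (-0.28), on log2(FPKM + 0.1) (-0.32) and the replicate block (-0.17). Scaling by library size only moved the median of all genes to -0.15. With 1 library left out, the log2 fold change ranged from -0.76 to 0.51 for Ces3a, -0.69 to 0.10 for Ces3b and -0.22 to 0.63 for Ces1b. The number of members with DOX wholly above PBS ranged from 3 to 6 (6 without DOX replicate 1), against 11.3% to 13.3% of all tested genes, and wholly below from 0 to 1 (1 without DOX replicate 1 or 3), against 12.7% to 15.7%. The DOX minus PBS difference in log2 ratio ranged from -0.21 to 0.61 for Ces2a over Ces2c, -0.13 to 1.97 for Ces2c over Ces3a and -0.81 to 1.04 for Ces3a over Ces3b. The median log2 fold change of the members ranged from 0.34 to 0.67. The cause of these shifts was not tested. The check of overlap under the alternatives and the other legacy setting of edgeR were chosen after seeing the data.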
